A study of Mus musculus with 12 samples.

Results

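Transcripts of 10 marker genes of blood vessel endothelium were followed in cultures of type II alveolar epithelial cells, namely Pecam1, Cdh5, Kdr, Tek, Vwf, Emcn, Cldn5, Tie1, Eng and Esam. The genes were taken by name, and all 12 probe sets annotated only to them were read, out of 45101 probe sets on each array. Cdh5 and Eng had 2 probe sets and the other genes 1. In the fit across genes, where each gene is represented by its brightest probe set, they are 10 of 18193 genes.

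Endothelial cells line the vessels, and in the lung a dense capillary bed lies directly against the alveolar epithelium, so preparations of type II cells can carry them along. Endothelial cells are told from other cells by receptors for vascular growth factors (Kdr for VEGF, Tek for angiopoietins, with the related receptor Tie1, and Eng, a co-receptor for BMP and TGF-beta ligands), by junction proteins (Cdh5, Pecam1, Cldn5 and Esam), by the sialomucin Emcn and by the clotting protein Vwf, which they store and secrete. Several of these genes are not restricted to vessels, since Pecam1 is also found on platelets and leukocytes and Vwf in megakaryocytes.

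RNA came from type II cells, the surfactant-making cells of the alveolus, isolated from mouse lungs and cultured on collagen for 7 days. The 12 samples form 4 genotype groups of 3, namely cells lacking Gna11 (Gna11 group), Gnaq and Gna11 (Gnaq/Gna11), Gna12 (Gna12), and Gna12 and Gna13 (Gna12/Gna13), which encode alpha subunits of heterotrimeric G proteins. The medium was an epithelial growth medium without hydrocortisone and with keratinocyte growth factor, renewed every 3 days, and no further treatment was given. All groups lack at least 1 of these genes, and no array from cells with all of them was analysed here. How the deletions were made and whether they were confined to a cell type, and how old the mice were, was not given in the sources used here. Separate cultures or animals are not stated for the replicates either, so the spread behind each p-value is only that among these arrays.

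Facts about the arrays as a whole bear on what follows. Values are RMA summaries read as log2, and array medians lay between 5.0314 and 5.1095. All 13 measured genes of a type II list and all 14 of a pan-epithelial list were above the array median on all 12 arrays, but so were 19 of 20 pan-leukocyte genes and 14 of 17 macrophage and monocyte genes. Each targeted gene had 1 probe set on which all of its knockout arrays read below all other arrays. That was 1 of 7 probe sets for Gnaq, 1 of 2 for Gna11, 1 of 5 for Gna12 and 1 of 7 for Gna13. Eif2s3y, a gene of the Y chromosome, split the arrays into 6 at 6.91 to 7.37 and 6 at 3.07 to 3.56. The low arrays were all 3 of Gnaq/Gna11 and replicate 2 of each other group, so in those groups replicate 2 was not the same RNA as replicates 1 and 3. The gap between the 3′ and 5′ control probe sets for Gapdh, which reads RNA quality, was 3.463 to 4.031 on the Gna11 arrays and 2.669 to 3.333 on all others. With it as a covariate, 3 genes in place of 335 were called over the whole array between Gnaq/Gna11 and Gna11. Between Gna12 and Gna11 0 were called in place of 513. Because the gap sets the Gna11 arrays apart without overlap, such a fit can hardly separate RNA quality from genotype. The part of RNA quality in the drop was therefore not tested. Fits adjusted for average pan-leukocyte level instead called 14 and 0 genes in these comparisons. That level was 8.6 to 9.16 on the Gna11 arrays and 9.18 to 10.23 on all others. With no overlap there, these fits can hardly separate it from genotype either. A position code in the labels carries the number 2 in both groups lacking Gna11 and 4 in both lacking Gna12, and its letters differ between single and double knockouts, so position and genotype cannot be told apart.

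Of the 10 markers, 8 read above the array median on all 12 arrays, Cdh5 did so on 1 array and Emcn on none. The array median served as the level of background. Markers varied more among replicates of a genotype than most genes did. The SD within groups was 1.16 for Cldn5, 1.09 for Tek, 0.754 for Eng, 0.674 for Tie1 and 0.609 for Vwf, against a median of 0.228 over all genes, and it was above that median for 9 of the 10. Between genotypes, limma called 0 of the 10 markers at an adjusted p under 0.05 in each of 6 comparisons. The same rule called 1.84% of all genes between Gnaq/Gna11 and Gna11, 0% between Gna12/Gna13 and Gna12, 0.0715% for the difference between these differences, 2.82% between Gna12 and Gna11, 6.1% between the double knockouts, and 12.3% between the 6 arrays lacking Gna12 and the 6 lacking Gna11. At an unadjusted p under 0.05 the markers numbered 1, 1, 0, 0, 2 and 2 in this order, where 16.2%, 4.51%, 10.8%, 20.9%, 20.9% and 30.3% of all genes passed.

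**Figure D1:**
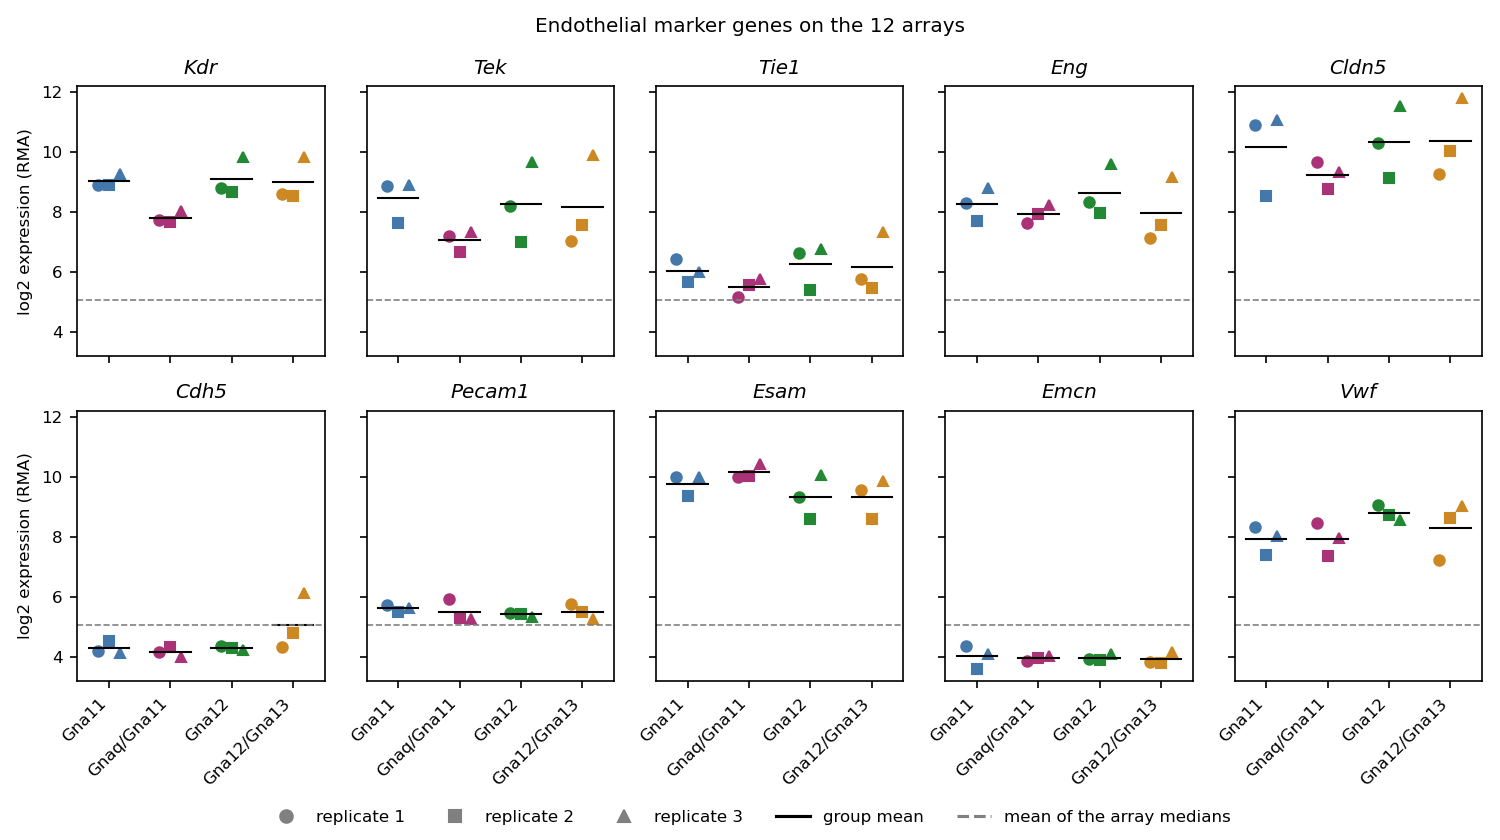
Log2 expression of the 10 marker genes (vertical axis, RMA value of the brightest probe set) in the 4 genotype groups, with 1 point per array, the group mean as a black bar and the mean of the array medians as a dashed line. Kdr lies between 7.69 and 8.04 in the Gnaq/Gna11 arrays and at 8.54 or above in all others, while Cdh5 and Emcn lie under the dashed line on nearly all arrays.

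Kdr, the main signalling receptor for VEGF on endothelial cells, separated the genotypes more than any other marker in its readings, although the difference did not pass the test. It read 8.90, 8.92 and 9.29 in replicates 1 to 3 of the Gna11 group and 7.73, 7.69 and 8.04 in those of the Gnaq/Gna11 group. In the Gna12 group it read 8.81, 8.68 and 9.83, and in the Gna12/Gna13 group 8.61, 8.54 and 9.84. The 3 Gnaq/Gna11 arrays were thus the lowest of all 12, with no overlap, while the other groups overlapped. The mean was 7.82 ± 0.195 (SD, n = 3) in Gnaq/Gna11 cells and 9.04 ± 0.219 (n = 3) in Gna11 cells, a log2 difference of -1.21 ± 0.372 (SE, 95% interval -2.03 to -0.398), or 2.32-fold in size. Its limma adjusted p was 0.136, so Kdr was not called although its interval excludes 0. Against the Gnaq/Gna11 arrays the Gna12/Gna13 arrays were higher by 1.17 ± 0.372 (95% interval 0.355 to 1.99, limma adjusted p = 0.0926), again without a call. Kdr was not called between Gna12/Gna13 and Gna12 cells (-0.11, 95% interval -0.93 to 0.703) or between Gna12 and Gna11 cells (0.07 ± 0.372).

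Because all Gnaq/Gna11 arrays were low in Eif2s3y, Kdr was also compared among the 6 low arrays alone. There the mean of the 3 Gnaq/Gna11 arrays lay 1.10 below the single Gna11 array on the log2 scale, and the single Gna12/Gna13 array lay 0.71 above them. With Eif2s3y as a covariate the difference from Gna11 was -0.88 and the limma adjusted p 0.264. The Gna12/Gna13 minus Gna12 difference exceeded the Gnaq/Gna11 minus Gna11 difference by 1.10 ± 0.526 (95% interval -0.0537 to 2.25, limma adjusted p = 0.491), so the 2 differences were not shown to be unequal.

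Tek, the receptor of the angiopoietins, varied far more between replicates. It read 8.87, 7.65 and 8.92 in the Gna11 group, 7.21, 6.68 and 7.35 in Gnaq/Gna11, 8.20, 7.00 and 9.67 in Gna12 and 7.05, 7.58 and 9.90 in Gna12/Gna13. The highest array was 9.32-fold above the lowest. All 3 Gnaq/Gna11 values were under all 3 Gna11 values, but the Gna12 and Gna12/Gna13 groups each spanned low and high readings. The Gnaq/Gna11 mean of 7.08 ± 0.353 (SD, n = 3) differed from the Gna11 mean of 8.48 ± 0.720 (n = 3) by -1.40 ± 0.764 (SE, 95% interval -3.08 to 0.275, limma adjusted p = 0.402). With Eif2s3y as a covariate the difference was -0.53, and with the Gapdh gap -0.59. Gna12/Gna13 and Gna12 cells differed by -0.11 with an interval of -1.79 to 1.57, which leaves room for a change of more than 2-fold in either direction.

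Tie1, the orphan partner of Tek, followed the same arrays at a dimmer reading. Its values were 6.45, 5.68 and 6.02 in Gna11, 5.18, 5.57 and 5.76 in Gnaq/Gna11, 6.63, 5.42 and 6.77 in Gna12, and 5.76, 5.46 and 7.35 in Gna12/Gna13. All groups overlapped, and the Gnaq/Gna11 difference from Gna11 was -0.55 ± 0.48 (limma adjusted p = 0.626). Eng, which binds BMP and TGF-beta family ligands beside the receptor Acvrl1, read 8.32, 7.71 and 8.82 in Gna11, 7.64, 7.95 and 8.23 in Gnaq/Gna11, 8.33, 7.99 and 9.61 in Gna12, and 7.14, 7.59 and 9.18 in Gna12/Gna13. Replicate 3 was the highest Eng array of every group, and no group stood apart. Its largest difference between a double and its single knockout was -0.67 ± 0.539, for Gna12/Gna13 against Gna12, with a limma adjusted p of 1. The dimmer Eng probe set ran from 5.17 to 7.61 and also peaked in Gna12 replicate 3. For Gna12/Gna13 against Gnaq/Gna11 the brighter set gave a difference of 0.03 and the dimmer 0.58, neither called.

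Cldn5, the tight junction claudin of endothelium, had the widest spread of the 10. It read 10.91, 8.53 and 11.09 in Gna11, 9.68, 8.76 and 9.33 in Gnaq/Gna11, 10.31, 9.14 and 11.54 in Gna12 and 9.26, 10.03 and 11.80 in Gna12/Gna13. Its highest array was 9.6-fold above its lowest, and 81.5% of its variance lay within genotype groups. The lowest array of all belonged to the Gna11 group and the highest to Gna12/Gna13, so the groups overlapped throughout. The Gnaq/Gna11 mean was 0.92 ± 0.807 (SE) below the Gna11 mean, with a limma adjusted p of 0.624. It was -1.74 without Gna11 replicate 2, -0.46 without replicate 3 and 0.06 with Eif2s3y as a covariate. Gna12/Gna13 against Gna12 gave 0.03 ± 0.807.

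Promoters were compared for markers that varied together over the arrays, and 4 of the 6 found in RefSeq (assembly GRCm38.p6) are printed: Tek and Cldn5, the pair with the highest Pearson r, Tie1, and Kdr. Each is the 250 bases just before the start of the gene, 5′ to 3′ on the strand of the gene. Capitals mark GGAA, the core letters of ETS factor sites, or its reverse complement TTCC. ETS factors such as Erg and Fli1 are known regulators of endothelial genes. The stretches lie at chr4:94739039-94739288 (plus strand, Tek), chr16:18776597-18776846 (plus, Cldn5), chr4:118489850-118490099 (minus, Tie1) and chr5:75978456-75978705 (minus, Kdr).
Tek: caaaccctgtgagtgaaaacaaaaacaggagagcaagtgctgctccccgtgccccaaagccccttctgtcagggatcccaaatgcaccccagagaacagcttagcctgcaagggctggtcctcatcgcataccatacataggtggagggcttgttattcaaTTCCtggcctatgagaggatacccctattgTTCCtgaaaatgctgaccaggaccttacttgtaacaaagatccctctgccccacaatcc
Cldn5: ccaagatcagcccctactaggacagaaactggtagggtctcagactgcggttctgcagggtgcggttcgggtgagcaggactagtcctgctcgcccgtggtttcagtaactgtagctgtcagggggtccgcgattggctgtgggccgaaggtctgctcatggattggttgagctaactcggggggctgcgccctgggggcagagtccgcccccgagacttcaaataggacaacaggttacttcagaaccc
Tie1: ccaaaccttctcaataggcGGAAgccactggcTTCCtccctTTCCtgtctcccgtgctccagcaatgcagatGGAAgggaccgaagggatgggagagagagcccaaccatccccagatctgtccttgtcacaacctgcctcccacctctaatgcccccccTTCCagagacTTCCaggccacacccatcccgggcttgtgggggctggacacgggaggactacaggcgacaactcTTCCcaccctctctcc
Kdr: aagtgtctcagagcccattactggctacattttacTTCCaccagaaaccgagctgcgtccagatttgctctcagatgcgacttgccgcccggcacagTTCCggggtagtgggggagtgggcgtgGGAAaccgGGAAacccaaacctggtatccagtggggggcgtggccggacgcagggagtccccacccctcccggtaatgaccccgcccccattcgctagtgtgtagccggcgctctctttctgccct

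The letters GGAA occurred 7 times in the Tie1 stretch on either strand, 4 times in Kdr, 2 times in Tek and 0 times in Cldn5, and 4 and 3 times in Emcn and Eng. Those letters were found in 93.4% of 32851 promoters of this length, with a median of 3, so their presence does not set these promoters apart. AGATAA, read by GATA factors, was in none of the 6 stretches and in 9.99% of all. AACAAT, a SOX factor core, occurred 1 time each in Tek and Emcn (9.42% of all promoters), and GGGCGG, an SP factor box, 2 times in Kdr and 1 time in Cldn5 (32.7% of all). A match is a description of letters only. Tek and Cldn5, the pair with the highest Pearson r, differed in these letters.

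Cdh5 encodes VE-cadherin, the adhesion protein of endothelial junctions and among the most specific markers of the lineage. It read 4.21, 4.52 and 4.12 in Gna11, 4.17, 4.34 and 4.01 in Gnaq/Gna11, 4.37, 4.31 and 4.23 in Gna12, and 4.32, 4.79 and 6.12 in Gna12/Gna13. All but the last were under the array median. Replicate 3 of Gna12/Gna13 was also the highest array of the other Cdh5 probe set, at 5.21 against 3.58 to 4.54 elsewhere, and of Kdr, Tek, Tie1 and Cldn5. The mean difference of 0.78 ± 0.346 between Gna12/Gna13 and Gna12 (95% interval 0.0148 to 1.54, limma adjusted p = 1) rests on groups that overlap. It was 0.25 without Gna12/Gna13 replicate 3, and the other probe set gave 0.27. Most arrays measured Cdh5 only at the level of background.

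Pecam1, an adhesion molecule of endothelium, platelets and leukocytes, stayed within 5.25 to 5.92 on all arrays, just above the array median. It read 5.73, 5.49 and 5.64 in Gna11, 5.92, 5.31 and 5.28 in Gnaq/Gna11, 5.48, 5.43 and 5.35 in Gna12, and 5.76, 5.49 and 5.25 in Gna12/Gna13. The highest array was 1.59-fold above the lowest, and the Gnaq/Gna11 difference from Gna11 was -0.11 ± 0.191 (limma adjusted p = 0.82). All 3 Gna12 arrays lay under all 3 Gna11 arrays, with a mean difference of -0.20. Pecam1 was lowest on the array on which Kdr, Tek, Tie1, Cldn5 and Cdh5 were highest.

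Esam, an immunoglobulin-type adhesion molecule of endothelial junctions and platelets, had another order of groups than the receptors. It read 10.00, 9.36 and 9.99 in Gna11, 9.99, 10.03 and 10.45 in Gnaq/Gna11, 9.34, 8.59 and 10.07 in Gna12, and 9.56, 8.60 and 9.88 in Gna12/Gna13. The group with the lowest Kdr and Tek thus held the highest Esam. All 3 Gna12/Gna13 arrays were under all 3 Gnaq/Gna11 arrays, a difference of -0.81 ± 0.391 (95% interval -1.67 to 0.0483, limma adjusted p = 0.268). The 6 arrays lacking Gna12 averaged 0.63 ± 0.276 below the 6 lacking Gna11 (limma adjusted p = 0.152). With Eif2s3y as a covariate these differences were -1.44 (limma adjusted p = 0.00588) and -0.94 (limma adjusted p = 0.00436), and both were then called. With the Gapdh gap as a covariate the second was -0.13 (limma adjusted p = 0.858), and without Gna12/Gna13 replicate 2 the first was -0.44. Among the low Eif2s3y arrays alone the single Gna12/Gna13 array was 1.55 below the mean of the 3 Gnaq/Gna11 arrays.

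Emcn, the sialomucin of capillary and venous endothelium, ran from 3.60 to 4.36 and stayed under the array median everywhere. Group means were 4.02 ± 0.388 (SD, n = 3) in Gna11, 3.96 ± 0.0688 in Gnaq/Gna11, 3.97 ± 0.105 in Gna12 and 3.93 ± 0.194 in Gna12/Gna13. No level of Emcn above background, taken as the array median, was measured on any array. Its Pearson r with the other markers ran from -0.07 (Pecam1) to 0.71 (Cldn5).

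Vwf, the carrier of clotting factor in endothelium and platelets, read 8.35, 7.40 and 8.04 in Gna11, 8.46, 7.37 and 7.96 in Gnaq/Gna11, 9.07, 8.75 and 8.58 in Gna12, and 7.25, 8.64 and 9.05 in Gna12/Gna13. All 3 Gna12 arrays were above all Gna11 arrays, and the double knockouts spread widely. Gna12 minus Gna11 was 0.87 ± 0.443 (95% interval -0.104 to 1.84, limma adjusted p = 0.291). Vwf was the marker with the smallest difference between Gnaq/Gna11 and Gna11 cells, 0.0032 ± 0.443 with an interval of -0.969 to 0.975. Without Gna12/Gna13 replicate 1, its lowest array, Vwf was called between the arrays lacking Gna12 and those lacking Gna11 (0.89, limma adjusted p = 0.0443), where all 12 arrays gave 0.62 ± 0.313 and an adjusted p of 0.206.

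Kdr, Tek, Tie1, Eng and Cldn5 were high on the same arrays. This set was chosen after its values were seen and is given as a description. Their mean was 8.69, 7.70 and 8.83 in the 3 Gna11 replicates, 7.49, 7.33 and 7.74 in Gnaq/Gna11, 8.46, 7.64 and 9.48 in Gna12, and 7.56, 7.84 and 9.61 in Gna12/Gna13. The highest array was 4.86-fold above the lowest, and 5 arrays stood over 8: replicates 1 and 3 of Gna11 and of Gna12, and replicate 3 of Gna12/Gna13. The 3 Gnaq/Gna11 arrays all lay low, at a mean of 7.52 ± 0.207 (SD, n = 3). The other groups had means of 8.34 to 8.53 and SDs of 0.616 to 1.11. All 3 Gnaq/Gna11 arrays were low in Eif2s3y. The replicate 2 arrays of Gna11, Gna12 and Gna12/Gna13, also low in it, lay at 7.70, 7.64 and 7.84. Genotype and Eif2s3y were therefore not separated in these means. Since these are bulk RNA samples, fewer endothelial cells and less of this RNA per cell cannot be told apart.

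Over the 12 arrays the 10 pairs among these genes had Pearson r of 0.73 to 0.93, and 0.75 to 0.95 after group means were removed. Tek and Cldn5 had the highest Pearson r (0.93, Spearman rho = 0.85, r = 0.86 without the 2 arrays farthest from the median of Tek), while Kdr and Tek had the highest rho (0.87) and Tek and Eng the highest r after group means were removed (0.95). Over all 45 pairs of the 10 markers the median r was 0.41, with 12 pairs below 0 and the lowest, Pecam1 with Eng, at -0.48. No p is attached to these values, since arrays share groups and processing. The agreement was clear only among the arrays high in Eif2s3y, and the narrow range of the low arrays by itself limits r there. Among those 6 arrays the pairs had r of 0.71 to 1 and the mean of the 5 genes ran from 7.56 to 9.61, while among the 6 low arrays it ran only from 7.33 to 7.84 and pairs had r of -0.52 to 0.61. Of the 6 high arrays, Gna12/Gna13 replicate 1 (Eif2s3y 7.37) had the lowest mean of the 5, 7.56. The part of Eif2s3y in the marker levels was not tested.

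**Figure D2:**
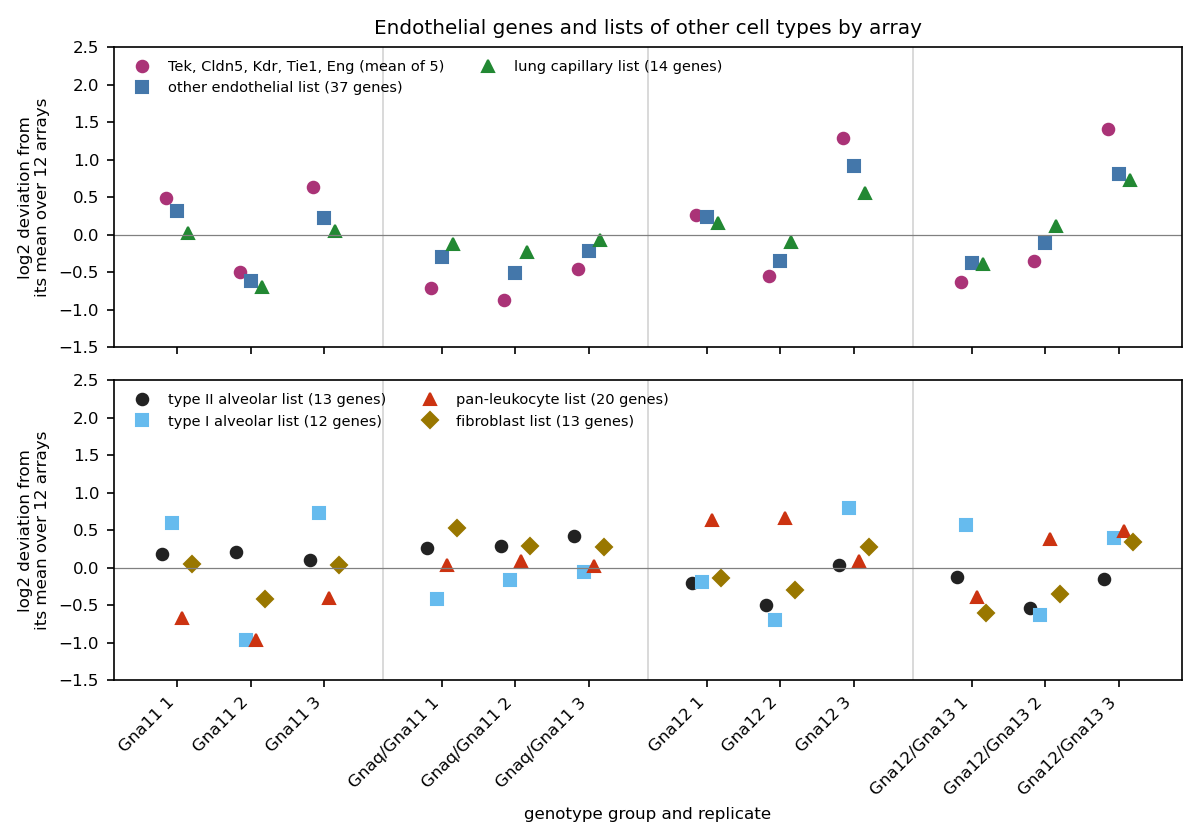
Deviation of gene means from their own mean over the 12 arrays (vertical axis, log2) for each array, grouped by genotype and replicate, with the 5 coupled markers and 2 endothelial lists above and 4 lists of other cell types below. The 5 markers, the other endothelial genes and the lung capillary genes peak together in replicate 3 of Gna12 and of Gna12/Gna13. The fibroblast points are also highest of their group on both of these arrays. Type I and type II points are so only in Gna12, and pan-leukocyte points only in Gna12/Gna13.

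A list of other endothelial genes gave the same picture. The mean of its 37 measured genes read 6.78, 5.85 and 6.69 in Gna11, 6.17, 5.96 and 6.25 in Gnaq/Gna11, 6.70, 6.12 and 7.39 in Gna12, and 6.09, 6.36 and 7.28 in Gna12/Gna13. It followed the mean of the 5 markers with r = 0.97 over 12 arrays (rho = 0.88, r = 0.91 without the 2 farthest arrays), with r = 0.97 among the arrays high in Eif2s3y and r = 0.51 among the low. Of the 37 genes, 21 (56.8%) had r of at least 0.7 with the 5 markers, against 186 of 18188 other genes (1.02%) in all. Among lists of other cell types the share was 2 of 14 pericyte and smooth muscle genes (highest r 0.87), 1 of 8 mesothelial, 1 of 13 fibroblast (0.91), 1 of 12 type I and 1 of 12 platelet and megakaryocyte genes, and 0 of 20 pan-leukocyte, 0 of 17 macrophage and monocyte, 0 of 13 type II and 0 of 14 pan-epithelial genes. Examples are the adhesion molecule Icam2 (r = 0.97, 7.54 to 10.48 over the arrays), the vascular phosphatase Ptprb (r = 0.94, 8.35 to 11.2), the vessel guidance receptor Robo4 (r = 0.94, 4.28 to 7.17), Egfl7, a protein secreted by endothelium (r = 0.93, 8.52 to 11.08), and the adrenomedullin receptor parts Ramp2 (r = 0.93, 7.85 to 11.06) and Calcrl (r = 0.92, 3.19 to 5.93). Calcrl was above the array median on only 2 arrays.

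The transcription factors of the lineage were mostly dim. Erg read 5.20 to 5.57 with r = 0.07, Sox18 4.52 to 5.14 with r = -0.62, and Fli1 stayed under the array median on all arrays, as did Sele, Mcam, Gja5, Bmx and Mmrn1. Sox17 followed the 5 markers (r = 0.89) within a narrow span of 4.59 to 5.63. In all, 18 of the 37 were above the median on all 12 arrays and 6 on none. Limma called 0 of the 37 in each of the 6 comparisons. Their median difference was -0.157 between Gnaq/Gna11 and Gna11 (-0.0283 over all genes) and -0.13 between Gna12/Gna13 and Gna12 (-0.00034 over all genes).

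Vessel subtypes were sampled by 2 further lists. Of 14 lung capillary genes, 5 (35.7%) had r of at least 0.7 with the 5 markers, among them Gpihbp1, which holds lipoprotein lipase at the capillary wall (r = 0.94, 7.49 to 11.02). Ptprb and Plvap stand on this list and on the other endothelial list. The enzyme itself, Lpl, was called, higher by 1.33 ± 0.371 in the arrays lacking Gna12 than in those lacking Gna11 (limma adjusted p = 0.0402). It had r = 0.2 with the 5 markers, and macrophages are also known to make it. Hpgd was called lower by a difference of -0.30 in the same comparison, at readings under the array median. Of 7 lymphatic genes 0 reached r of 0.7, and the lymphatic factor Prox1 was under the array median on all arrays together with Reln, Mmrn1 and Fgl2.

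Ligands and partner receptors of the VEGF, angiopoietin and TGF-beta pathways were read as a list of 27 measured genes. Acvrl1, the type I receptor that signals with Eng, had r = 0.96 with the 5 markers and ran from 6.0 to 9.10, and Flt1, the other VEGF receptor of blood vessels, had r = 0.75 and ran from 7.58 to 10.0. These were among 4 of the 27 (14.8%) with r of at least 0.7. Nrp1, a co-receptor for VEGF and semaphorins, was lower in Gna12/Gna13 than in Gnaq/Gna11 cells by a difference of -1.49 ± 0.25 (limma adjusted p = 0.00749), and Nrp2 was higher in Gna12 than in Gna11 cells by 1.52 ± 0.316 (limma adjusted p = 0.0332). Angptl4, a secreted inhibitor of lipoprotein lipase, was higher in Gnaq/Gna11 than in Gna11 cells by 1.08 ± 0.208 (limma adjusted p = 0.0296) and lower in Gna12/Gna13 than in Gnaq/Gna11 cells by a difference of -0.83 (limma adjusted p = 0.0406). Bmp4 was lower, by a difference of -0.71, across the arrays lacking Gna12 against those lacking Gna11 (limma adjusted p = 0.0276), where Nrp1 (-1.12) was again lower and Nrp2 (0.92) higher. Their r with the 5 markers was -0.03 for Nrp1, 0.19 for Nrp2, 0.02 for Bmp4 and -0.27 for Angptl4. After group means were removed it was 0.82 for Nrp1, near the 0.79 of Flt1, and 0.4, 0.5 and 0.18 for Nrp2, Bmp4 and Angptl4. No gene of the list was called between Gna12/Gna13 and Gna12, where no gene of the array was.

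Junction partners of Cdh5, Cldn5 and Esam, a list of 16 measured genes many of which epithelium also uses, passed the test in only a few cases. Ocln, a tight junction protein, was higher in the arrays lacking Gna12 than in those lacking Gna11 by 0.85 ± 0.151 (limma adjusted p = 0.00633) and in Gna12/Gna13 than in Gnaq/Gna11 cells by 0.84 ± 0.214 (limma adjusted p = 0.043). The adaptor Afdn was higher in the arrays lacking Gna12 by 0.47 ± 0.11 (limma adjusted p = 0.0205). Jam2, a junction molecule of endothelium, gave -0.72 ± 0.209 in Gnaq/Gna11 against Gna11 without a call (limma adjusted p = 0.116). The remaining genes were not called in any of the 6 comparisons.

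Other cell types were followed beside the markers, and their part in the marker differences was not tested. The mean of the 5 markers had r of 0.10 with 20 pan-leukocyte genes and 0.04 with 17 macrophage and monocyte genes, whose group means ran from 8.89 to 10.03 and from 8.69 to 10.04. With 13 type II genes it had r of -0.10, with 12 type I genes 0.66, with 14 pericyte and smooth muscle genes 0.58, with 8 mesothelial genes 0.69 and with 13 fibroblast genes 0.31. After group means were removed the fibroblast value was 0.94, the pericyte and smooth muscle value 0.76 and the type I value 0.68. The mesothelial value was then 0.66, the type II value 0.54, the macrophage and monocyte value 0.38 and the pan-leukocyte value 0.23. Without the 2 arrays farthest from the median of the list, the mesothelial value was 0.91 and the pericyte and smooth muscle value 0.62. The type I, fibroblast and type II values were then 0.57, 0.45 and -0.52. The type I list ran from 8.65 to 10.3 in the Gna11 group alone. Pan-leukocyte genes were called higher in Gna12 than in Gna11 cells in 7 of 20 cases, as were 4 of 17 macrophage genes, while 5 of 17 macrophage genes were called higher in Gnaq/Gna11 than in Gna11 cells. The Gapdh gap had r of 0.22 with the 5 markers and the like gap for Actb 0.34. For Eif2s3y it was 0.76 (rho = 0.48), and 0.67 after group means were removed.

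Of the cell type lists, Esam had its highest r over the 12 arrays with the type II list and Vwf with the platelet list. Neither list stayed highest after group means were removed. Esam had r of 0.87 with the type II list (rho = 0.76, r = 0.62 without the 2 farthest arrays), and 0.79 and 0.95 among the arrays high and low in Eif2s3y, against 0.28 with the other endothelial list. After group means were removed these values were 0.87 and 0.79, with 0.96 for the mesothelial and 0.88 for the type I list. Without the 2 arrays farthest from its own median, the fibroblast list had r of 0.84 with Esam. The type II list itself averaged 10.76 in Gna11, 10.93 in Gnaq/Gna11, 10.38 in Gna12 and 10.33 in Gna12/Gna13, the same order as Esam except that the last 2 change places. Vwf had r of 0.82 with 12 platelet and megakaryocyte genes (rho = 0.85, r = 0.79 without the 2 farthest arrays), 0.77 with the lung capillary list, 0.70 with the pan-leukocyte list and 0.64 with the other endothelial list. After group means were removed these Vwf values were 0.73, 0.72, 0.74 and 0.57, and the macrophage and monocyte list had 0.83. The mean of the 5 markers had r of 0.60 with the platelet list (rho = 0.55), and 0.85 without the 2 farthest arrays. The difference from Vwf was not tested. In that platelet list 2 of 12 genes, Clec1b (3.98 ± 0.9, limma adjusted p = 0.0421) and Tubb1 (2.33 ± 0.473, limma adjusted p = 0.0313), were called higher in Gna12 than in Gna11 cells. When the pan-leukocyte mean entered the fit as a covariate, the Vwf difference between these groups turned from 0.87 to -0.73, neither called. That mean sets the Gna11 arrays apart without overlap, so the fit can hardly separate it from genotype. Pecam1 had no r above 0.17 with any of these lists.

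**Figure D3:**
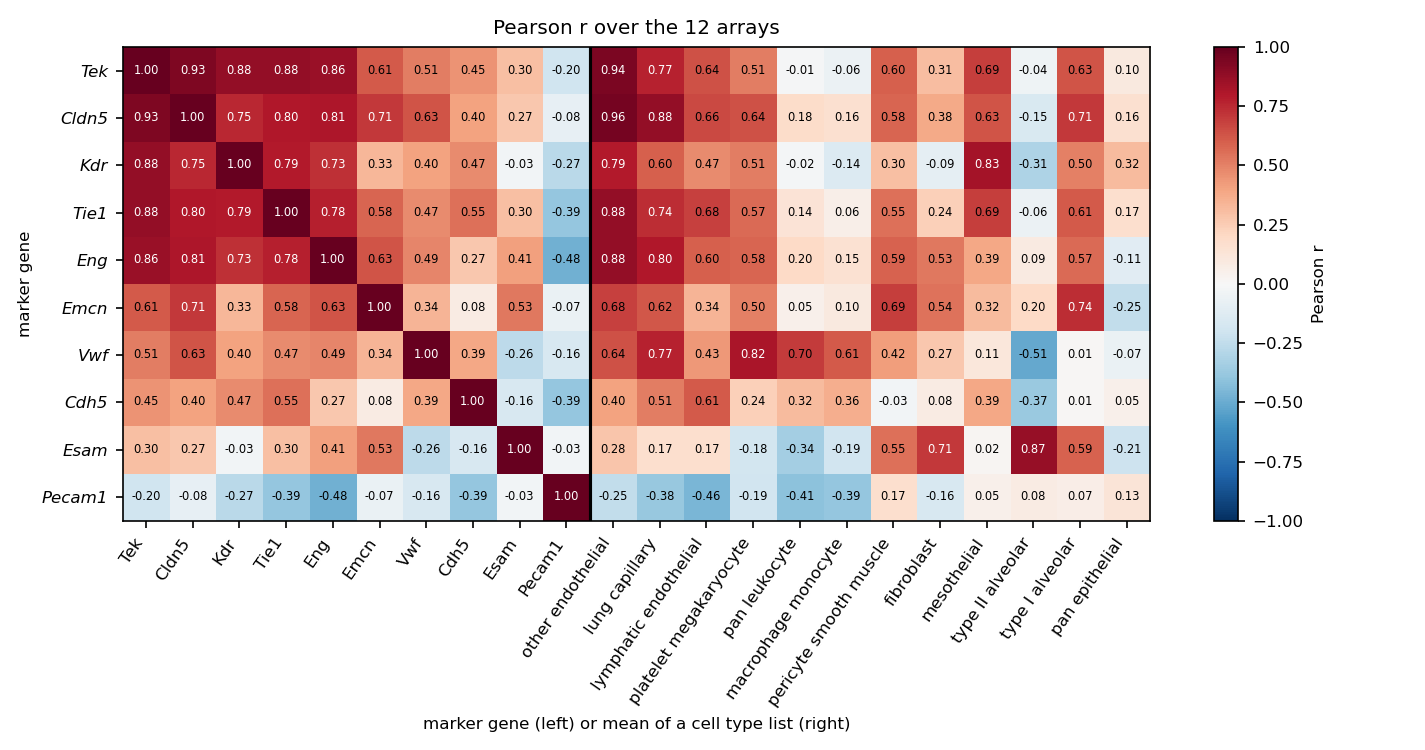
Pearson r over the 12 arrays between each pair of marker genes (left of the black line) and between each marker and the mean of 12 cell type lists (right), with red for positive and blue for negative values. Tek, Cldn5, Kdr, Tie1 and Eng form a red block with r of 0.73 to 0.93, Esam is reddest with the type II list (0.87), Vwf with the platelet list (0.82), and Pecam1 is pale or blue throughout.

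Genes whose levels ran most alike with each marker over the 12 arrays were sought among 12691 genes. For Tek they were Acvrl1 (r = 0.972), Gpihbp1 (r = 0.962) and Ccm2l (r = 0.954), for Cldn5 Icam2 (r = 0.976), Acer2 (r = 0.971) and Ramp2 (r = 0.961), and for Kdr Ccm2l (r = 0.912), Tcf4 (r = 0.895) and Tspan18 (r = 0.89). Tie1 ran closest with Podxl (r = 0.926), Hspa12b (r = 0.904) and Hoxa5 (r = 0.898), and Eng with Ecscr (r = 0.925), Tspan18 (r = 0.885) and Sox17 (r = 0.877). Ccm2l and Tspan18 each stood beside more than 1 of the 5. Cdh5 and Emcn, at background on most arrays, were left out. Esam ran closest with Ablim1 (r = 0.96), Stard4 (r = 0.953) and Dgkd (r = 0.951). Vwf did so with Btbd19 (r = 0.888), Nyx (r = 0.874) and Fam217b (r = 0.871). Pecam1 did so with Zfp692 (r = 0.841), Foxp4 (r = 0.821) and Itprid2 (r = 0.819). Each r here was picked as among the highest of 12691 over only 12 arrays. Its size does not by itself show a relation, and none was tested.

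The loss of Gnaq beside Gna11 was the comparison in which most marker values leaned 1 way. In Gnaq/Gna11 against Gna11 cells 8 of 10 differences were below 0, with a median of -0.231 where all genes had -0.0283. That median was 0.056 with Eif2s3y as a covariate, -0.783 with the pan-leukocyte mean as one and -0.452 without Gna11 replicate 2. By brightest probe set, Kdr and Tek were the 2 markers whose arrays did not overlap, both lower. Of all genes, 19.7% showed no overlap and 9.83% were lower without it. The other Cdh5 probe set was also lower without overlap (-0.38), at readings under the array median. In Gna12/Gna13 against Gna12 cells 6 of 10 values were below 0, with a median of -0.0632 and 0 markers free of overlap, where 11.3% of all genes were free of it. Leaving out single arrays moved that median between -0.599 (without Gna12/Gna13 replicate 3) and 0.207 (without Gna12 replicate 3). The difference between these differences had a median of 0.329 over the markers (0.0221 over all genes), which was 0.0705 without Gna12/Gna13 replicate 3 and -0.113 with Eif2s3y as a covariate, and no marker came nearer to a call than a limma adjusted p of 0.491.

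Between the single knockouts 6 of 10 values were higher in Gna12, with a median of 0.0436 that ran from -0.145 to 0.369 without single arrays, the ends being without Gna12 replicates 3 and 2. There Vwf was higher and Pecam1 lower without overlap, 2 of 10 where 26.3% of all genes showed none. Between the double knockouts 7 of 10 values were higher in Gna12/Gna13, with a median of 0.53 where all genes had -0.042. Without Gna12/Gna13 replicate 3 that median was 0.114, without replicate 1 it was 0.904, and with Eif2s3y as a covariate 0.0804. By brightest probe set, Kdr was higher and Esam lower without overlap, where 28.4% of all genes showed none. The smallest limma adjusted p was 0.0926. The other Cdh5 probe set (0.74) and the dimmer Eng set (0.58) were also higher without overlap, neither called. Between the arrays lacking Gna12 and those lacking Gna11, 7 of 10 values were higher, with a median of 0.453, and 0 markers were free of overlap, where 5.74% of all genes were. That median was 0.0934 without Gna12/Gna13 replicate 3, 0.0752 with Eif2s3y as a covariate and -0.0639 with the pan-leukocyte mean as one. These last comparisons share arrays with the earlier ones, so the low Gnaq/Gna11 readings enter several of them.

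**Figure D4:**
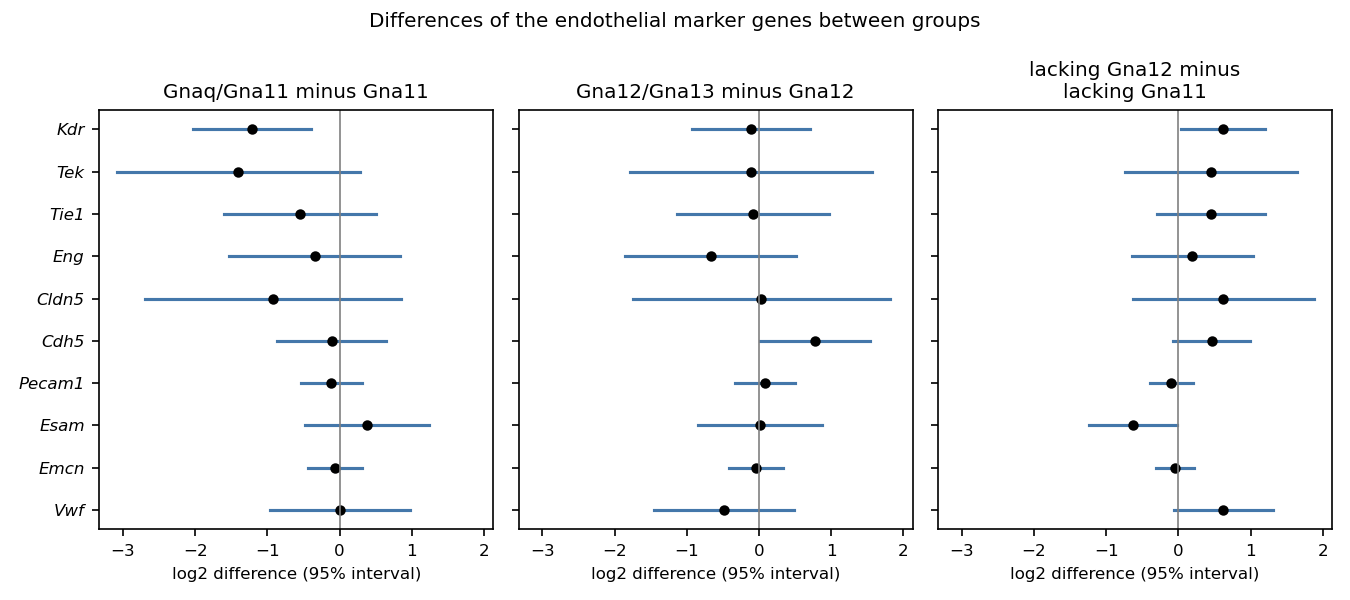
Log2 differences of the 10 markers (points) with 95% intervals (bars) in 3 comparisons, from the limma fit to all 12 arrays. The Kdr interval in Gnaq/Gna11 minus Gna11 (-2.03 to -0.398) excludes 0, and the bars of Tek and Cldn5 span more than 3 log2 units in the first 2 comparisons.

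Within each marker the 4 groups were also placed in order of their means. By brightest probe set, Kdr was the only gene for which neighbours in that order did not overlap, Gnaq/Gna11 at 7.82 and Gna12/Gna13 at 8.99. For the other 9 markers all neighbouring groups overlapped on that probe set. The other Cdh5 probe set, mostly under the array median, also had its Gnaq/Gna11 arrays (3.58 to 3.75) under all others (3.77 or above). The share of all genes with such a gap was not counted, so Kdr is not shown to stand out by it. Gnaq/Gna11 had the lowest mean for Cdh5, Kdr, Tek, Cldn5, Tie1 and Eng, and the highest for Esam.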

How the data were processed

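RNA of 12 samples was measured on Affymetrix mouse arrays. Biotin-labelled probes were made from 10 ng of RNA after amplification, per the labels' protocols. The values the authors deposited are RMA summaries per probe set, per the submitters' processing notes, and are read here as log2. The base is not stated, and the values run from 2.13 to 14.06. RMA corrects background, normalizes between arrays and summarises probes. The software and annotation were not given in the sources used here.

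A dated platform annotation named 1 gene for 34945 of 45101 probe sets (64 controls), and 34741 symbols were updated through RefSeq GRCm38.p6. Each gene took its brightest probe set. The limma 3.58.1 fit (R 4.3.3, lmFit and eBayes with intensity trend) had 1 mean per group over 12 arrays, with 8 residual and 3.19 prior degrees of freedom. Tests were two-sided, adjusted by Benjamini-Hochberg over 18193 genes, and tested on simulated data. With 44 olfactory receptor probe sets, fewer than the 50 required for a background level, the array median took that place. The number of arrays limits precision.

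Markers, lists, tests and alternatives were chosen with earlier results of these data known. Named genes are all 10 markers, list genes called in a comparison or with the largest differences, the 3 genes closest to each marker, and examples from the lists. Those examples, and the split by Eif2s3y, were chosen after values were seen. Motif counts cover 250 bases. Promoters of 6 of 10 markers were at hand.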

Additional observations from a re-analysis of the deposited data

How the results depend on the processing

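The 10 markers were refitted under 25 alternatives, 24 of them for the comparisons of 4 groups: each array left out, a replicate block, other variance models and weights, other gene values, a filter on dim genes, other scalings and 3 covariates. The fit to only the groups compared was not run separately for comparisons that use all groups. Of 1468 refitted marker differences 7 were called and 119 changed sign, and 40 of 60 marker comparisons changed sign under some alternative. The number of markers called stayed at 0 in all alternatives for Gna12/Gna13 minus Gna12, Gna12 minus Gna11 and the difference between differences, where limma had 1, 0 and 0 markers at an unadjusted p under 0.05. Same-numbered replicates correlated at -0.04 to 0.27 in their deviations, and differently numbered ones at -0.28 to 0.15. Of the same-numbered pairs 6 of 18 were over 0.1, and 8 of 12 arrays were closest to their own number. Since not all of these pairs passed 0.1, the numbers were not taken to pair the samples, although the same-numbered range lay higher. With the replicate number as a block, 1 marker was called in Gnaq/Gna11 minus Gna11 (Kdr, limma adjusted p = 0.0398), 1 between the double knockouts (Kdr, 0.0223) and 2 between the arrays lacking Gna12 and Gna11 (Kdr, 0.0387, and Esam, 0.0358). With Eif2s3y as a covariate 1 was called in each of the last comparisons (Esam). Leaving out single arrays gave 0 to 1 called between the arrays lacking Gna12 and Gna11, and 0 in the others. The cause was not tested. Over all alternatives Kdr in Gnaq/Gna11 minus Gna11 ran from -1.33 to -0.88, with limma adjusted p of 0.0398 to 0.63. With the 95th percentile of the olfactory receptor probe sets as background, chosen after seeing the data, 8 markers exceeded it on all arrays, and 6 with the 99th. Depth does not apply, and signals near the array median limit Cdh5, Emcn and Pecam1.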
